A study of Mus musculus with 6 samples.

Results

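The clustered histone genes were followed in RNA-seq libraries of mouse embryonic stem cells (mESCs) kept with LIF, with OSM or with neither cytokine. They were taken as every symbol of the deposited expression table that starts with Hist1h, Hist2h, Hist3h or Hist4h, which gave 70 of 28584 symbols. Read from the symbols, 6 of the 70 encode linker histone H1, 20 encode H2A, 19 encode H2B, 12 encode H3 and 13 encode H4. On the GRCm38 build, cluster 1 held 56 of them and lies on chromosome 13, where 19 sit at chr13:21715763-21837530, 5 at chr13:22035164-22043676, 29 at chr13:23531050-23764406 and 2 at chr13:23933773-23934851. The remaining cluster 1 symbol is Hist1h2al, a processed pseudogene at chr13:51202727-51203065. Cluster 2 held 10 members at chr3:96219865-96270132, cluster 3 held 3 at chr11:58948920-58956830 and cluster 4 held only Hist4h4 at chr6:136801553-136804415.

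A single mESC line from C57BL/6 × 129S6 embryos was grown on mitomycin C-treated mouse embryonic fibroblast (MEF) feeder cells for 5 passages and was then moved to the media compared. Each of the 3 groups had 2 libraries, all from passage 10 in its medium. LIF-ESCs received 1000 U/mL LIF, OSM-ESCs received 10 ng/mL OSM, and -LIF-ESCs received the same serum-containing basic medium with neither. The paper describes the 2 replicates of a group as biological. Neither it nor the labels say whether they were separate cultures, so the p-values measure only the spread between these libraries.

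Histone proteins package DNA: H2A, H2B, H3 and H4 form the nucleosome core, and H1 binds the linker DNA between cores. Most histone mRNA is made during DNA replication from gene clusters without introns, and it ends in a conserved stem-loop bound by Slbp in place of a poly-A tail. Some of these genes also give longer, polyadenylated RNA, and the replication-independent histone genes outside the clusters make ordinary polyadenylated mRNA. The libraries were made from RNA selected with poly-T beads, so the values below are those of polyadenylated or carried-over histone RNA and not of all histone mRNA.

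The stem-loop itself could be read from the annotated transcripts. The pattern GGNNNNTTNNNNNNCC, on the transcript strand and with its last 6 bases the reverse complement of its first 6, was present in 44 of the 70 members and in 0.845% of the 17033 coding genes of the table. Of the 26 members without it, 11 are annotated with coding sequence alone, so their models do not reach the region. The 44 members held 6 forms of the stem-loop. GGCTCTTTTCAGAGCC was carried by 26 members (3 H1, 10 H2A, 8 H2B and 5 H3 genes), and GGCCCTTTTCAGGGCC by 7 members, all of them H4 genes. The first form was in 0 H4 genes and the second in 0 genes of the other types. The windows below are shown because these genes carry the differences described below. Lower case marks flanking bases and capitals the stem-loop.
Hist1h1c stem-loop: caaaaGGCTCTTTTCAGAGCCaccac
Hist1h2ac stem-loop: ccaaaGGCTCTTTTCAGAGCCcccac
Hist1h2ae stem-loop: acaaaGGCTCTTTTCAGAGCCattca
Hist1h4b stem-loop: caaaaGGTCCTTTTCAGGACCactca
Hist1h4h stem-loop: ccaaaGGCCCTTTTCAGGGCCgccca
Hist1h4i stem-loop: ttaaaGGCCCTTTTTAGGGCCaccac

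A poly-A signal, AATAAA or ATTAAA within the last 40 bases of an annotated transcript, was found in 17 of the 70 members and in 84.9% of the coding genes. Both features were present in Hist1h1c, Hist1h4i, Hist1h4h and Hist1h2ae, whose models run on for 840, 330, 46 and 151 bases after the stem-loop. The windows below show the signal of each in capitals. The transcript of Hist1h2bc is spliced, with 2 exons over chr13:23684199-23692908, and holds neither the stem-loop nor a signal in its last 40 bases. All sequences of this kind are from the GENCODE M21 transcripts, 5′ to 3′.
Hist1h1c poly-A signal: gtatgcttctAATAAAaagcgtttagtttt
Hist1h4i poly-A signal: ttctgtttacATTAAAagtattctatgcta
Hist1h4h poly-A signal: acattttcttATTAAAagagcgaacatgtg
Hist1h2ae poly-A signal: cagcttctccAATAAAtgggtcaatttttt

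Expression was deposited as TPM, which takes reads per gene length and gives each library the same sum. Multiplied by exon length, the TPM of all 70 members came out as whole reads in every library within 0.02 of a read. The matched genes held between 20712939 and 28994417 reads per library, and the members 2255 and 1714 reads in -LIF-ESCs, 2124 and 2199 reads in LIF-ESCs and 3083 and 3754 reads in OSM-ESCs. Many members were thinly covered, and 26 had fewer than 20 reads in each library. At least 1 TPM in at least 2 libraries was reached by 56 members, which were tested, and not by 14 (2 H1, 3 H2A, 7 H2B, 1 H3 and 1 H4 genes). Members are also alike in sequence: in the median member, 55.2% of the 50-base stretches of the transcript also occurred in the transcript of another gene, and in 37 of the 70 this share was above 50%. How reads matching several genes were counted is not given in the sources used here, so the values of single members with a high share are uncertain. Another annotated gene overlapped 26 of the members, Hist1h2ae among them, and with no strand setting given their reads cannot be told from those of the overlapping gene.

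The cells carried the markers of their label, although the paper describes the colonies of -LIF-ESCs at these passages as differentiated. All 8 pluripotency markers passed the filter, and their sum was 4846 ± 1.31 TPM (SD, n = 2) without a cytokine, 6335 ± 36.5 TPM with LIF and 5961 ± 13.6 TPM with OSM. The largest part of the sum was Dppa5a, at 2942, 3059.7 and 2901 TPM. Pou5f1, Klf4, Esrrb and Tfcp2l1 were called higher in both comparisons with -LIF-ESCs, whereas Nanog had 433, 290 and 261 TPM (log2 fold changes -0.58 and -0.73, adjusted p = 0.000144 and 6.37e-05). The paper lists Nanog among the genes with more RNA in both treated groups, which is the opposite direction. Markers of fibroblasts, the feeder cell type, were present too. The 12 fibroblast genes summed to 96.9 and 89.3 TPM in -LIF-ESCs, 297 and 291 TPM in LIF-ESCs and 421 and 417 TPM in OSM-ESCs, and 10 of the 12 were called higher (limma, with the limits given for the members) in LIF-ESCs and in OSM-ESCs than in -LIF-ESCs. In -LIF-ESCs the markers ranged from 0.0562 TPM for Dcn to 42.9 TPM for Col5a1, and 4 of them (Dcn, Lum, Postn and Col3a1) had means under 0.5 TPM. Col5a1 went the other way, with 42.9, 23.9 and 36.1 TPM in -LIF-ESCs, LIF-ESCs and OSM-ESCs (log2 fold changes -0.82 and -0.24, adjusted p = 4.24e-05 and 0.00345). In bulk libraries, fewer cells of a type and less RNA per cell cannot be told apart.

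Summed over all 70 members, expression came to 293 and 277 TPM in -LIF-ESCs, 255 and 290 TPM in LIF-ESCs and 345 and 347 TPM in OSM-ESCs. The OSM-ESC libraries lay above the other 4, and the LIF-ESC libraries overlapped the -LIF-ESC libraries. This total was shared very unequally. Hist1h1c and Hist1h2bc, chosen after their values were seen as the members with the highest mean TPM, together had 23.8 and 22.0 TPM in -LIF-ESCs, 75.1 and 76.1 TPM in LIF-ESCs and 106 and 110 TPM in OSM-ESCs. Of the member reads they held 16.7% and 16.9% in -LIF-ESCs, then 45.5% and 43.2% with LIF, and 47.6% and 49.0% with OSM. The other 68 members summed to 269 and 255 TPM in -LIF-ESCs, 180 and 214 TPM in LIF-ESCs and 239 and 237 TPM in OSM-ESCs, so without those 2 genes the cytokine-treated libraries were the lower ones.

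Single genes carried the sums of 2 histone types. H1 transcripts summed to 21.8 ± 0.39 TPM (SD, n = 2) in -LIF-ESCs, to 45.0 ± 3.63 TPM in LIF-ESCs and to 64.9 ± 5.26 TPM in OSM-ESCs, of which the 5 H1 genes other than Hist1h1c made up 7.72 ± 0.24, 3.64 ± 1.79 and 5.94 ± 1.15 TPM. H2B transcripts summed to 64.3 ± 3.52, 68.8 ± 2.10 and 84.3 ± 8.92 TPM in the same order. The 18 H2B genes other than Hist1h2bc summed to 55.4 ± 2.07, 34.6 ± 3.21 and 35.4 ± 7.30 TPM. Both sums were thus lower in the treated groups once the leading gene was set aside. Within the H1 sum, Hist1h1a had 4.26, 1.04 and 1.44 mean TPM. Hist1h1b, Hist1h1d and Hist1h1e instead had higher means in OSM-ESCs than in -LIF-ESCs. H3 transcripts summed to 58.9 ± 5.29 TPM in -LIF-ESCs against 38.3 ± 6.68 in LIF-ESCs and 41.4 ± 4.85 in OSM-ESCs. H2A summed to 82.3 ± 5.78, 62.3 ± 3.78 and 72.4 ± 6.69 TPM, and H4 to 57.3 ± 7.81, 58.1 ± 8.87 and 83.0 ± 6.38 TPM. The 2 H3 sums of -LIF-ESCs lay above the 4 of the treated groups.

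**Figure D1:**
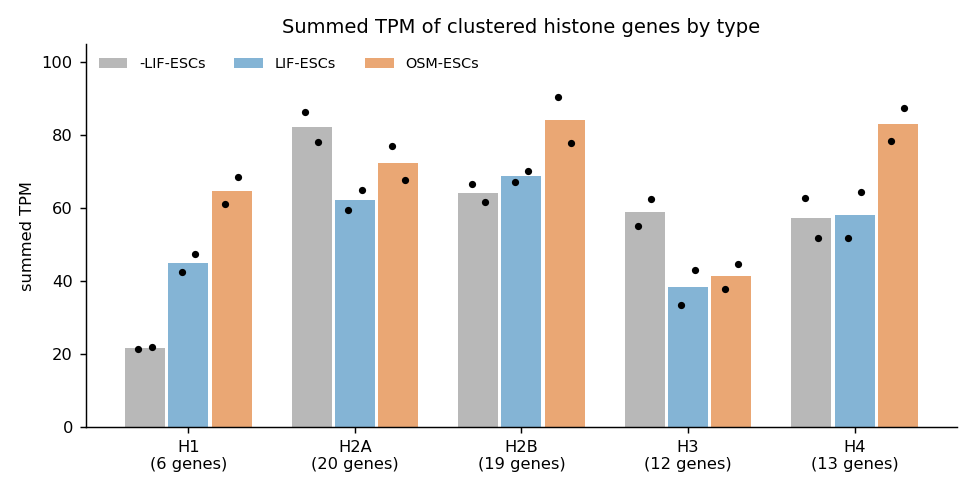
Summed TPM (vertical axis, from 0) of the clustered histone genes of each type in -LIF-ESCs, LIF-ESCs and OSM-ESCs. Bars are means of 2 libraries and black points are the libraries. The H1 sums of 21.8, 45.0 and 64.9 TPM and the H2B sums of 64.3, 68.8 and 84.3 TPM include Hist1h1c and Hist1h2bc, without which both sums were lower in the treated groups. The H1 remainder included Hist1h1a, at 4.26, 1.04 and 1.44 mean TPM. H3 was at 58.9 TPM in -LIF-ESCs and at 38.3 and 41.4 TPM in the treated groups.

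Which members differed was tested on log2(TPM + 1) with limma over all 18556 genes that passed the filter, and a gene was called where the Benjamini-Hochberg adjusted p was under 0.05 and the log2 fold change was 1 or more in size. Changes with LIF and with OSM are those of LIF-ESCs and OSM-ESCs against -LIF-ESCs. This scale understates the fold change of genes with a low TPM. In LIF-ESCs against -LIF-ESCs, 5 of the 56 tested members were called higher and 8 lower. Among all genes 13.3% were called higher and 8.09% lower in that comparison. In OSM-ESCs against -LIF-ESCs, 7 members were called higher and 7 lower, where all genes gave 14.2% higher and 7.86% lower. Both comparisons used the same -LIF-ESC libraries. The 5 genes higher in LIF-ESCs were Hist1h1c, Hist1h2bc, Hist1h2bn, Hist1h4h and Hist1h4i, and all 5 were also called higher in OSM-ESCs, together with Hist1h2ab and Hist1h4m. Lower in both were Hist1h1a, Hist1h2ac, Hist1h2ae, Hist1h2ak, Hist1h3h and Hist1h4b, with Hist1h2an and Hist1h3a called in LIF-ESCs alone and Hist1h2aj in OSM-ESCs alone, which does not show that these 3 differ between the cytokines.

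The tested members had a median log2 fold change of -0.28 with LIF and -0.16 with OSM, beside 0.17 and 0.18 over all genes tested. Rescaling the libraries by the median ratio brought the median of all genes to 0.02 in both comparisons and that of the members to -0.39 and -0.28. It left the higher calls at 5 and 7 and raised the lower calls to 11 and 13, where it called 10.5% of all genes higher and 10.2% lower with LIF and 11.1% and 10.2% with OSM. Limma's voom on the recovered reads called 5 members higher and 15 lower with LIF, and 8 higher and 17 lower with OSM. Of the 17163 genes it tested, voom called 13.5% higher and 13.7% lower with LIF and 14.1% and 13.9% with OSM. Without a limit on the fold change, the adjusted p alone gave 8 members higher and 14 lower with LIF, and 9 higher and 12 lower with OSM. The same rule held for 42.2% and 25.9% of all genes in LIF-ESCs and for 42.9% and 25.4% in OSM-ESCs. The lower calls in OSM-ESCs leaned on single libraries, with 2 in place of 7 without -LIF-ESCs replicate 1 and 4 without OSM-ESCs replicate 2.

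**Figure D2:**
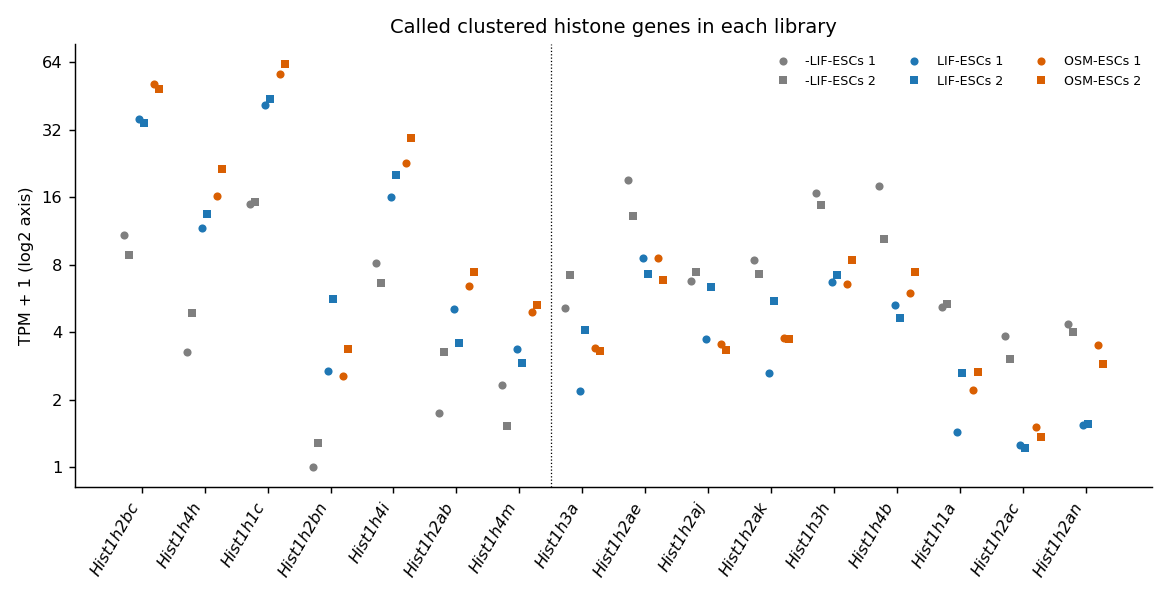
TPM + 1 on a log2 axis in each of the 6 libraries for the members called in either comparison with -LIF-ESCs, ordered by their mean log2 fold change. Grey, blue and orange mark -LIF-ESCs, LIF-ESCs and OSM-ESCs, circles replicate 1 and squares replicate 2, and genes left of the dotted line were called higher. Hist1h1c climbed from 14.0 and 14.2 TPM in -LIF-ESCs to 56.0 and 61.8 TPM in OSM-ESCs.

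Of the H1 genes, Hist1h1c had the highest mean TPM of all 70 members, and Hist1h1a moved against it. Hist1h1c, at chr13:23738808-23740367, had 14.0 and 14.2 TPM in -LIF-ESCs, 40.1 and 42.7 TPM in LIF-ESCs and 56.0 and 61.8 TPM in OSM-ESCs, from 206 to 1170 reads per library. None of the groups overlapped. The log2 fold change was 1.49 ± 0.064 (SE) with LIF (limma adjusted p = 2.76e-05) and 1.99 with OSM (adjusted p = 1.18e-05). Hist1h1a had 4.17 and 4.35 TPM in -LIF-ESCs, 0.432 and 1.65 TPM in LIF-ESCs and 1.20 and 1.67 TPM in OSM-ESCs. Both -LIF-ESC libraries were above the other 4, and the log2 fold changes were -1.43 ± 0.30 (adjusted p = 0.00843) and -1.12 (adjusted p = 0.0208). The call for Hist1h1a in LIF-ESCs was lost without LIF-ESCs replicate 1, in which the gene had 3 reads, and that in OSM-ESCs when either library of -LIF-ESCs or OSM-ESCs was left out. Hist1h1b, with 1.43 and 1.88 TPM in -LIF-ESCs, 0.717 and 1.49 TPM in LIF-ESCs and 1.60 and 2.89 TPM in OSM-ESCs, did not pass the test and its -LIF-ESC values overlapped both treated groups.

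The levels of Hist1h1c and Hist1h2bc stepped up over the groups in the order in which the fibroblast markers did, from -LIF-ESCs over LIF-ESCs to OSM-ESCs. The part of feeder cells in these values was not tested. Small nuclear, nucleolar and other RNAs that lack a poly-A tail, which poly-T selection should leave behind, summed over 143 genes to 4796 ± 74.9 TPM in -LIF-ESCs, to 5391 ± 52.2 TPM in LIF-ESCs and to 5421 ± 58.1 TPM in OSM-ESCs. Of the 133 tested, 23 were called higher and 13 lower with LIF, and 21 higher and 12 lower with OSM. The part of carry-over in the histone values was likewise not tested.

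The H2A genes, the type with the most tested members, gave the most lower calls, 4 of 17 in each comparison. Over all genes 8.09% were called lower with LIF and 7.86% with OSM. In OSM-ESCs 1 H2A gene was called higher, beside 14.2% of all genes. With LIF limma called 0 H2A genes higher, 1 at an unadjusted p under 0.05, and voom 0. The shares of all genes by these rules were 13.3%, 43.8% and 13.5%. Hist1h2ac, at chr13:23681467-23683948, had 2.85 and 2.03 TPM in -LIF-ESCs, 0.258 and 0.223 TPM in LIF-ESCs and 0.518 and 0.365 TPM in OSM-ESCs. These were 127 reads in the 2 -LIF-ESC libraries, 11 in LIF-ESCs and 24 in OSM-ESCs, and the groups did not overlap. Hist1h2ac passed the filter through the -LIF-ESC libraries alone, where it was high, so a difference was built into its being tested. Its log2 fold changes were -1.46 ± 0.18 with LIF (adjusted p = 0.000978) and -1.25 with OSM (adjusted p = 0.00179). Hist1h2ae, the H2A gene with the highest mean TPM, had 18.1 and 12.2 TPM in -LIF-ESCs, 7.57 and 6.30 TPM in LIF-ESCs and 7.59 and 5.86 TPM in OSM-ESCs. Both untreated libraries were above the 4 treated ones, with log2 fold changes of -1.005 (adjusted p = 0.00829) and -1.05 (adjusted p = 0.00705). Both calls were lost without -LIF-ESCs replicate 1, the first also without LIF-ESCs replicate 2 and the second without OSM-ESCs replicate 2.

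Hist1h2ak had 7.42 and 6.29 TPM in -LIF-ESCs, 1.63 and 4.51 TPM in LIF-ESCs and 2.77 and 2.73 TPM in OSM-ESCs. Its log2 fold changes of -1.04 (adjusted p = 0.0403) and -1.06 (adjusted p = 0.0376) were near both limits. The calls were kept in 5 and 8 of 15 alternative settings, and of the libraries only LIF-ESCs replicate 2 could be left out without losing the first and only the LIF-ESC libraries without losing the second. Hist1h2an had 3.37 and 3.01 TPM in -LIF-ESCs, 0.542 and 0.564 TPM in LIF-ESCs, from 2 reads in each library, and 2.52 and 1.89 TPM in OSM-ESCs. The OSM-ESC libraries lay between the other groups, and the log2 fold change of OSM-ESCs against LIF-ESCs was 1.04 with an adjusted p of 0.0628. For the pseudogene Hist1h2aj, 5.77 and 6.41 TPM in -LIF-ESCs stood against 2.73 and 5.35 TPM in LIF-ESCs and 2.53 and 2.34 TPM in OSM-ESCs. It was called lower with OSM (log2 fold change -1.04, adjusted p = 0.014), and this was lost when either library of -LIF-ESCs or OSM-ESCs was left out. Hist1h2aj and Hist1h2an shared 93.1% and 85.8% of their 50-base stretches with other genes.

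Hist1h2ab was the only H2A gene called higher. It had 0.747 and 2.27 TPM in -LIF-ESCs, 4.06 and 2.58 TPM in LIF-ESCs and 5.44 and 6.45 TPM in OSM-ESCs, from 4 to 37 reads. The groups did not overlap, and the log2 fold change was 1.53 ± 0.33 in OSM-ESCs (adjusted p = 0.00949) and 0.83 in LIF-ESCs (adjusted p = 0.0736). The call in OSM-ESCs was lost without OSM-ESCs replicate 2. The pseudogene Hist1h2al, outside the cluster, had 6.25 and 9.51 TPM in -LIF-ESCs, 4.72 and 6.21 TPM in LIF-ESCs and 6.72 and 5.11 TPM in OSM-ESCs, and was not called.

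Among the H2B genes, Hist1h2bc and Hist1h2bn were called higher in both comparisons. Hist1h2bc had 9.86 and 7.81 TPM in -LIF-ESCs, 34.9 and 33.4 TPM in LIF-ESCs and 50.01 and 47.7 TPM in OSM-ESCs, from 84 to 669 reads. No groups overlapped, and the log2 fold changes were 1.85 ± 0.11 with LIF (adjusted p = 6.53e-05) and 2.35 with OSM (adjusted p = 3.02e-05). Hist1h2bn had 0 and 0.282 TPM in -LIF-ESCs, 1.68 and 4.66 TPM in LIF-ESCs and 1.56 and 2.38 TPM in OSM-ESCs. That was 1 read in -LIF-ESCs against 22 with LIF and 17 with OSM. Scaled by the reads per unit of TPM in each library, the ratio of reads was 24.7 with a 95% counting interval of 3.99 to 1018 for LIF-ESCs. For OSM-ESCs it was 15.8 (2.47 to 659). Hist1h2bn passed the filter through the treated libraries alone, where it was high, so a difference was built into its being tested. It was called in both comparisons (adjusted p = 0.00937 and 0.0236). The first call was lost without -LIF-ESCs replicate 1, and the second when any library of -LIF-ESCs or OSM-ESCs was left out. Its model holds coding sequence only and shares 86.4% of its 50-base stretches with other genes.

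No H2B gene was called lower, although the median of the 12 tested H2B genes was -0.51 with LIF and -0.71 with OSM. At an adjusted p under 0.05 with no fold limit, limma had 3 H2B genes lower with LIF and 2 with OSM, at an unadjusted p under 0.05 it had 3 and 4, and voom called 3 and 6. Over all genes, limma with both limits called 8.09% lower with LIF and 7.86% with OSM, and voom 13.7% and 13.9%. Hist1h2bk had 12.8 and 11.3 TPM in -LIF-ESCs, 5.37 and 5.82 TPM in LIF-ESCs and 9.36 and 3.29 TPM in OSM-ESCs. The -LIF-ESC libraries were the highest, but the log2 fold changes of -0.98 (adjusted p = 0.0756) and -0.97 (adjusted p = 0.0788) did not pass. With the median-ratio scaling and with voom, Hist1h2bk was called lower in both comparisons, and without OSM-ESCs replicate 1 it was called lower with OSM.

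**Figure D3:**
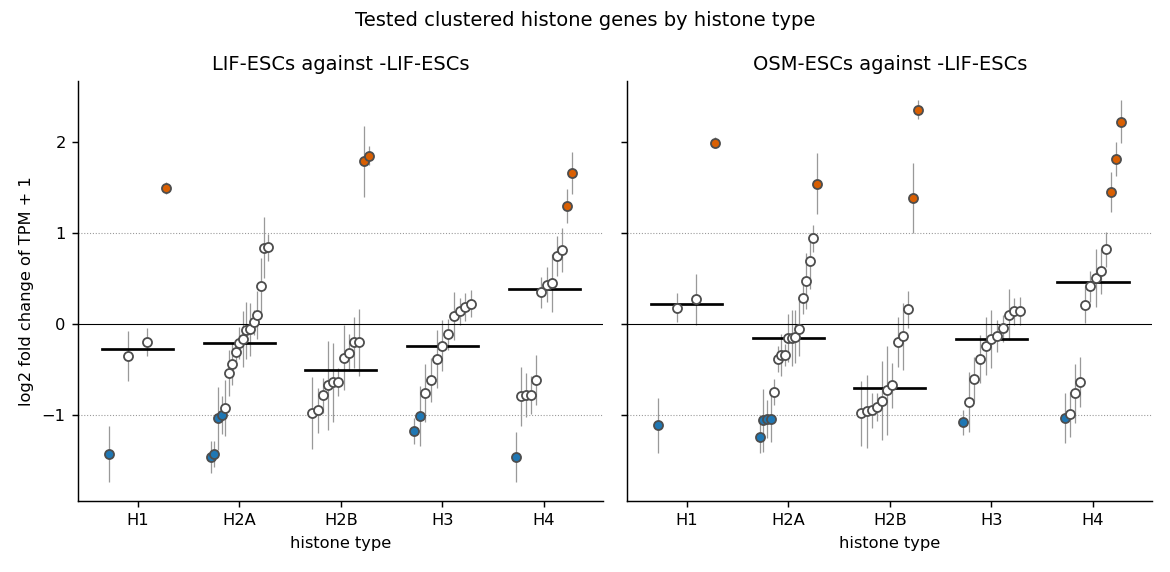
Log2 fold change of TPM + 1 against -LIF-ESCs for the 56 tested members, grouped by histone type, with LIF-ESCs on the left and OSM-ESCs on the right. Points are genes, vertical lines the standard error, black bars the median of a type and dotted lines the fold limit, with orange for called higher and blue for called lower. H2B held Hist1h2bc at 1.85 and 2.35 above a type median of -0.51 and -0.71.

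Of the H3 genes, 0 of 11 tested were called higher and 2 were called lower in LIF-ESCs and 1 in OSM-ESCs. Hist1h3h had 15.7 and 13.9 TPM in -LIF-ESCs, 5.71 and 6.20 TPM in LIF-ESCs and 5.54 and 7.42 TPM in OSM-ESCs. The -LIF-ESC libraries were at least 13.9 TPM where the treated ones were at most 7.42, and the log2 fold changes were -1.18 ± 0.14 (adjusted p = 0.000924) and -1.09 (adjusted p = 0.00127). The call in OSM-ESCs was lost without OSM-ESCs replicate 1. Hist1h3a had 4.14 and 6.24 TPM in -LIF-ESCs, 1.20 and 3.11 TPM in LIF-ESCs and 2.41 and 2.32 TPM in OSM-ESCs. Its log2 fold changes were -1.02 in LIF-ESCs (adjusted p = 0.0374), kept in 6 of 14 alternative settings and lost without any library but LIF-ESCs replicate 2, and -0.86 in OSM-ESCs (adjusted p = 0.0633). Hist1h3c, the H3 gene with the highest mean level, had 13.0 and 12.3 TPM in -LIF-ESCs, 6.26 and 9.85 TPM in LIF-ESCs and 6.60 and 9.55 TPM in OSM-ESCs, and its log2 fold changes of -0.62 and -0.61 did not pass (adjusted p = 0.0637 and 0.0674). Hist1h3i had 5.80 and 10.2 TPM in -LIF-ESCs, 3.11 and 5.39 TPM in LIF-ESCs and 5.54 and 7.22 TPM in OSM-ESCs, with no call in the main limma fit. Voom called Hist1h3i lower with LIF. The count of H3 genes that were higher was also 0 at an unadjusted p under 0.05 and with voom. Over all genes, that unadjusted p was reached by 43.8% higher with LIF and 44.5% with OSM. Voom called 13.5% and 14.1% of all genes higher.

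The H4 genes all encode the same core histone, yet they separated widely. Hist1h4i, at chr13:22040636-22041362, had 7.17 and 5.62 TPM in -LIF-ESCs, 15.1 and 19.2 TPM in LIF-ESCs and 21.6 and 28.4 TPM in OSM-ESCs. Hist1h4h, at chr13:23531050-23531519, had 2.26 and 3.89 TPM in -LIF-ESCs, 10.7 and 12.5 TPM in LIF-ESCs and 15.2 and 20.3 TPM in OSM-ESCs. For both genes the groups were fully separated and OSM-ESCs were highest. Hist1h4i had log2 fold changes of 1.30 ± 0.19 (adjusted p = 0.00188) and 1.81 (adjusted p = 0.00052), and Hist1h4h of 1.65 ± 0.23 (adjusted p = 0.00182) and 2.22 (adjusted p = 0.000584).

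Hist1h4m, with 1.32 and 0.535 TPM in -LIF-ESCs, 2.39 and 1.93 TPM in LIF-ESCs and 3.94 and 4.31 TPM in OSM-ESCs, was called higher with OSM (log2 fold change 1.44 ± 0.22, adjusted p = 0.00241). In LIF-ESCs its log2 fold change of 0.74 had an adjusted p of 0.0287 and was under the fold limit. Hist1h4b went down, from 16.9 and 9.47 TPM in -LIF-ESCs to 4.30 and 3.63 TPM in LIF-ESCs and 4.99 and 6.44 TPM in OSM-ESCs. The treated libraries were all below the untreated ones, with log2 fold changes of -1.47 ± 0.27 (adjusted p = 0.00501) and -1.04 (adjusted p = 0.0181). The second of these calls was lost without -LIF-ESCs replicate 1 or OSM-ESCs replicate 1. Hist1h4n had 11.7 and 10.7 TPM in -LIF-ESCs, 4.96 and 7.48 TPM in LIF-ESCs and 15.2 and 11.3 TPM in OSM-ESCs, so that LIF-ESCs were the lowest group. With LIF its log2 fold change was -0.78 (adjusted p = 0.0197, under the fold limit) and with OSM 0.21 (adjusted p = 0.411).

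All calls of the main limma fit fell in cluster 1, which also held 47 of the 56 tested members. Of the 24 tested at chr13:23531050-23764406, 3 were higher and 5 lower in LIF-ESCs and 4 were higher and 4 lower in OSM-ESCs, and of the 17 at chr13:21715763-21837530, 1 was higher and 3 lower in LIF-ESCs and 2 were higher and 3 lower in OSM-ESCs. In the 7 tested members of cluster 2, limma called 0 in either comparison with -LIF-ESCs, and at an unadjusted p under 0.05 there were 0 with LIF and 1 with OSM. Voom gave 0 and 1 as well. The gene past the unadjusted p was Hist2h4, an H4 gene named after its value was seen, with 0.271 and 0.198 TPM in -LIF-ESCs, 0.458 and 0.884 TPM in LIF-ESCs and 1.03 and 1.32 TPM in OSM-ESCs. It passed the filter through the OSM-ESC libraries alone, so its log2 fold change of 0.81 with OSM (adjusted p = 0.0127, under the fold limit) is given as a description. Hist2h4 and Hist1h2ac were the only tested members that reached 1 TPM in the libraries of a single group. Of the called members, Hist1h2bn reached it in LIF-ESCs and OSM-ESCs alone, and Hist1h2an in -LIF-ESCs and OSM-ESCs alone. These also passed the filter only through the groups where they were high.

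The genes of cluster 3 diverged from each other. Hist3h2a, an H2A gene, had 4.16 and 2.95 TPM in -LIF-ESCs, 7.65 and 6.51 TPM in LIF-ESCs and 7.75 and 7.53 TPM in OSM-ESCs. Its H2B neighbour Hist3h2ba had 12.5 and 13.8 TPM in -LIF-ESCs, 7.81 and 5.06 TPM in LIF-ESCs and 9.67 and 6.31 TPM in OSM-ESCs. Both were separated from -LIF-ESCs in every treated library, in opposite directions. The log2 fold changes of Hist3h2a were 0.84 ± 0.15 (adjusted p = 0.00452) and 0.94 (adjusted p = 0.00291), and those of Hist3h2ba were -0.95 ± 0.25 (adjusted p = 0.0176) and -0.68 (adjusted p = 0.0537), all under the fold limit. Of these genes the main limma fit thus called 0, and voom called 1 lower with LIF and 0 with OSM. With a pseudocount of 0.1, limma called Hist3h2ba lower with LIF and Hist3h2a higher with OSM. Median-ratio scaling also gave the call of Hist3h2ba with LIF. The pseudogene Hist3h2bb-ps had at most 3 reads in a library, with 0.570 and 0 TPM in -LIF-ESCs, 0 and 0.238 TPM in LIF-ESCs and 0.213 and 0 TPM in OSM-ESCs. Hist4h4 of cluster 4 had 0.309 and 0.3003 TPM in -LIF-ESCs, 0.112 and 0 TPM in LIF-ESCs and 0.0691 and 0.0864 TPM in OSM-ESCs, from 18, 3 and 5 reads per group. Neither reached the filter.

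Many H2A and H2B genes are arranged head to head, so that a pair starts from 1 shared stretch of DNA in opposite directions. The members held 14 such pairs with under 500 bases between the annotated starts, and in 9 both genes were tested. In 3 of the 9 the partners had opposite signs in LIF-ESCs, and likewise in 3 in OSM-ESCs. In 2 of these pairs both genes were called, in opposite directions. The starts of Hist1h2ac and Hist1h2bc are 251 bases apart. Hist1h2ac fell by 1.46 and 1.25 on the log2 scale in LIF-ESCs and OSM-ESCs, and Hist1h2bc rose by 1.85 and 2.35. Of the pair, Hist1h2ac passed the filter through -LIF-ESCs alone. In the pair Hist1h2ak and Hist1h2bn, 296 bases apart, the first fell by 1.04 and 1.06 and the second rose by 1.78 and 1.38, the latter from 0 and 1 read in the -LIF-ESC libraries. Hist1h2bn passed the filter through the treated groups alone. The third pair differed between the comparisons and held no called gene. Its members Hist1h2bf and Hist1h2ad had log2 fold changes of -0.32 and 0.10 in LIF-ESCs and of 0.15 and -0.16 in OSM-ESCs.

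**Figure D4:**
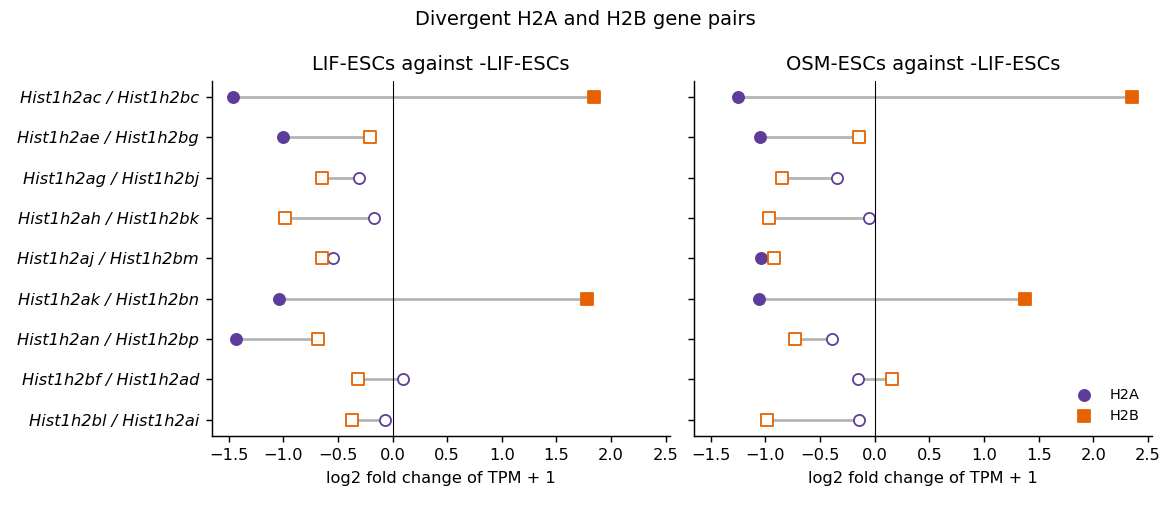
Log2 fold change of TPM + 1 against -LIF-ESCs for the 9 head-to-head pairs in which both genes were tested, with LIF-ESCs on the left and OSM-ESCs on the right. Circles are H2A genes, squares H2B genes, filled symbols called genes, and a grey line joins each pair. The pairs Hist1h2ac with Hist1h2bc and Hist1h2ak with Hist1h2bn span the widest ranges on this scale, with called genes at both ends.

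The stretch between Hist1h2ac and Hist1h2bc is shown because both of its genes were called, in opposite directions. The 250 bases before the RefSeq start of Hist1h2ac are chr13:23683960-23684209 on the minus strand of GRCm38.p6, and they reach to the annotated start of Hist1h2bc. Capitals mark the letters ATTTGCAT (the octamer known from H2B promoters), TATAAA and CCAAT on either strand, with no overlap between them here.
Hist1h2ac upstream: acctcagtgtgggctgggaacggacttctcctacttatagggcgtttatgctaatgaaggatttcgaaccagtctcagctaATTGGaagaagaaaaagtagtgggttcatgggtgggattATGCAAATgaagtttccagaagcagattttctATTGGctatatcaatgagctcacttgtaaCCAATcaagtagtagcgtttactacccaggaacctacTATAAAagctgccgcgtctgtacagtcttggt

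RefSeq promoters of 300 bases were matched for 62 of the 70 members. The octamer ATTTGCAT, on either strand, was in 7 of 18 H2A promoters and 7 of 16 H2B promoters, in 0 of the H1, H3 and H4 promoters, and in 1.74% of the 32851 promoters of the table. TATAAA was in 35 of the 62, against 13.6% of all promoters. CCAAT was in 53 of the 62, against 37.4% of all promoters, with 3 of 12 H4 promoters holding it and every matched promoter of the other types. These are matches of letters only.

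Members with a poly-A signal near the transcript end summed to 63.3 ± 5.75 TPM in -LIF-ESCs, to 99.6 ± 4.10 TPM in LIF-ESCs and to 134 ± 6.75 TPM in OSM-ESCs. The rise was carried by Hist1h1c (14.1, 41.4 and 58.9 mean TPM), Hist1h4i (6.39, 17.2 and 25.0) and Hist1h4h (3.07, 11.6 and 17.8). Members without one summed to 221 ± 5.67, 173 ± 20.96 and 212 ± 5.88 TPM. They include Hist1h2bc and the 11 members annotated with coding sequence alone, whose models could not show a signal. Of the 11 tested with a signal, 3 were called higher (Hist1h1c, Hist1h4h and Hist1h4i) and 1 lower (Hist1h2ae) in both LIF-ESCs and OSM-ESCs, with a median log2 fold change of 0.43 and 0.50. The 45 without gave 2 higher and 7 lower with LIF and 4 higher and 6 lower with OSM, with medians of -0.35 and -0.20. Among all genes 13.3% were called higher and 8.09% lower with LIF, and 14.2% and 7.86% with OSM.

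Splitting the members by shared sequence gave calls on both sides. Of the 23 tested with at most 50% of their 50-base stretches in other genes, 4 were called higher and 4 lower with LIF and 4 higher and 3 lower with OSM. The 33 above 50% gave 1 higher and 4 lower with LIF and 3 higher and 4 lower with OSM. Hist1h1c shared 8.54% of its stretches, Hist1h2ac 14.1%, Hist1h4i 28.9% and Hist1h2bc 30.6%, while Hist1h3h shared 93.9% and Hist1h4m 89.8%.

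Between the cytokines few members could be told apart. In OSM-ESCs against LIF-ESCs, limma called 0 of the 56 members in either direction, with or without the fold limit. Among all genes 0.0323% were called higher and 0.0485% lower, and 0.463% and 0.129% at an adjusted p alone. At an unadjusted p under 0.05, 7 of the 56 members were higher and 1 lower in OSM-ESCs, near the 9.8% and 5.5% of all genes. Voom called 1 member, Hist1h4n, higher (log2 fold change 1.07, adjusted p = 0.0414), beside 0.117% of all genes higher and 0.163% lower. The log2 fold change of Hist1h1c was 0.50 ± 0.064 (adjusted p = 0.0592), Hist1h2bc of 0.50 ± 0.11 (adjusted p = 0.128), Hist1h4i of 0.52 (adjusted p = 0.292) and Hist1h4h of 0.57 (adjusted p = 0.343). For these 4 genes both OSM-ESC libraries were above both LIF-ESC libraries. This is a description only, as the 4 were picked from members called against -LIF-ESCs. Full separation of 2 against 2 libraries has an exact permutation p of 0.333. The 12 fibroblast markers, 3 of which were higher at an adjusted p alone, had a median log2 fold change of 0.42 in the same comparison.

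Genes that act on histone supply were read from lists of known members. Over all genes, an unadjusted p under 0.05 was reached by 43.8% higher and 27.1% lower with LIF and by 44.5% and 26.7% with OSM, against which the counts at that threshold are to be read. The 11 tested replication-independent histone genes gave 0 higher and 1 lower call in each comparison with -LIF-ESCs. At an unadjusted p under 0.05, 3 were higher and 5 lower with LIF and 3 higher and 6 lower with OSM, and voom called 0 higher and 1 and 2 lower. The called gene was H1fx, a linker histone, at 143, 67.1 and 57.8 mean TPM in -LIF-ESCs, LIF-ESCs and OSM-ESCs (log2 fold changes -1.09 and -1.30, adjusted p = 0.000447 and 0.000229). H1f0, another linker histone, went from 159 to 92.7 and 89.0 TPM (log2 fold changes -0.77 and -0.83, adjusted p = 5.01e-05 and 3.88e-05, under the fold limit). Of the replication-independent H2A genes, H2afz had 518, 745 and 735 TPM, with log2 fold changes of 0.52 and 0.50 (adjusted p = 9.26e-05 and 0.000103). The summed TPM of the list was 2877 ± 10.5, 2947 ± 22.0 and 2818 ± 3.87.

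Of the 8 genes for histone gene transcription, 1 was called higher in LIF-ESCs (Ccne1, which drives cells into S phase with Cdk2, at 67.1, 141 and 135 TPM, log2 fold change 1.06, adjusted p = 1.79e-05). In OSM-ESCs the 1 call was Pou2f1, which binds the octamer, at 12.5, 24.9 and 27.5 TPM (log2 fold change 1.08, adjusted p = 6.11e-05). Each gene was just under the fold limit in the other comparison, with log2 fold changes of 0.94 for Pou2f1 with LIF and 0.99 for Ccne1 with OSM (adjusted p = 9.93e-05 and 2.03e-05). By the adjusted p alone, 6 of the 8 were higher with LIF and 5 with OSM, and 0 were lower, also at an unadjusted p under 0.05. Voom called 0 of the 8. Npat, which binds histone promoters as a target of that kinase, had 22.9, 26.4 and 24.7 TPM with log2 fold changes of 0.20 (adjusted p = 0.0167) and 0.11 (adjusted p = 0.111).

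Of the 14 genes for histone mRNA 3′ ends and turnover, limma called 0 in either direction in both comparisons. At an unadjusted p under 0.05, 4 were higher and 5 lower in each, and voom called 1 lower in LIF-ESCs and 0 in OSM-ESCs. Slbp, the stem-loop binding protein, had 33.9, 34.6 and 32.6 TPM, with log2 fold changes of 0.03 (adjusted p = 0.721) and -0.06 (adjusted p = 0.446). Lsm11, part of the U7 particle that directs cleavage, had 10.5, 5.65 and 6.01 TPM (log2 fold changes -0.79 and -0.71, adjusted p = 0.00118 and 0.00176). Eri1, an exonuclease that trims and degrades histone mRNA, had 26.1, 16.2 and 15.6 TPM (log2 fold changes -0.65 and -0.71, adjusted p = 0.000957 and 0.000687). Both were under the fold limit.

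Histone chaperones, which carry histones to DNA, gave 1 higher call of 19 in LIF-ESCs (Asf1a, log2 fold change 1.14, adjusted p = 4.08e-05) and 2 in OSM-ESCs (Asf1a, 1.12, and Atrx, 1.04), and 0 lower. At an unadjusted p under 0.05, 11 chaperone genes were higher and 4 lower in each comparison, and voom called 0. S phase genes gave 1 higher call of 26 in each comparison (Pola1, a DNA polymerase subunit, log2 fold changes 1.51 and 1.36) and 0 lower, and voom called 1 gene in each direction. By the adjusted p alone, 10 S phase genes were higher with LIF and 7 lower, and 9 and 8 with OSM. Unadjusted, the lower count was 7 and 8. They summed to 2703 ± 10.6 TPM in -LIF-ESCs, to 2683 ± 7.96 TPM in LIF-ESCs and to 2618 ± 53.8 TPM in OSM-ESCs.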

How the data were processed

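Per the labels, mRNA was captured on poly-T beads and made into libraries with the NEBNext Ultra kit. The submitters' processing notes name Trimmomatic, HISAT2, featureCounts and mm10. The annotation, the strand setting and the treatment of reads with several matches are not given in the sources used here. The deposited table holds TPM values made by the authors, and 0 of its columns lacked a sample. The label for RNA extraction names another tissue, which was not resolved.

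From these values, 28405 symbols (99.4%) were matched to GENCODE M21, and reads were recovered as TPM times exon length over 1 step per library, whole within 0.02 of a read for 26845 genes (94.5%). The log2(TPM + 1) values of 18556 genes were compared with limma 3.58.1 in R 4.3.3 (eBayes with a trend, two-sided, Benjamini-Hochberg), with the 6 libraries in 1 fit and 3 residual degrees of freedom. An exact permutation of 2 against 2 libraries cannot give a p below 0.333. Intervals of read ratios are exact binomial and cover counting error only. Features were extracted with Python 3.11.15, pandas 2.3.3 and numpy 2.4.6, and plots drawn with matplotlib 3.10.9. The fit was tested on simulated data.

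Named were all called members, the 3 members of each type with the highest mean TPM and those of clusters 3 and 4. The members and gene lists were chosen with earlier results of these data known. The alternatives were a replicate block, a pseudocount of 0.1, a stricter filter (5 TPM) or none, moderation without the trend, separate fits for each pair of groups, median-ratio scaling, voom on recovered reads, a call by adjusted p alone and each library left out.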

Additional observations from a re-analysis of the deposited data

How the results depend on the processing

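Counts of called members varied with the processing more on the lower side than on the higher side. In LIF-ESCs against -LIF-ESCs, the 5 higher calls became 8 with no fold limit, and the 8 lower calls became 4 with the filter of 5 TPM (which left 23 members to test), 15 with voom and 14 with no fold limit. In OSM-ESCs against -LIF-ESCs, the 7 lower calls became 13 with median-ratio scaling, 17 with voom and 12 with no fold limit. In OSM-ESCs against LIF-ESCs, voom gave 1 higher call in place of 0. Over all genes the lower share moved as well, from 8.09% to 13.7% with voom and 25.9% with no fold limit in LIF-ESCs. In OSM-ESCs it moved from 7.86% to 10.2% with median-ratio scaling, 13.9% with voom and 25.4% with no fold limit. The higher share in LIF-ESCs moved from 13.3% to 42.2% with no fold limit. Dropping that limit can only add calls, and fewer genes were tested under the stricter filter. The cause of the other shifts was not tested.

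With each library left out in turn, the higher calls ranged from 5 to 6 and the lower from 6 to 9 in LIF-ESCs, and from 5 to 7 and 2 to 7 in OSM-ESCs. The replicate block gave 5 higher and 7 lower members in LIF-ESCs, 7 and 7 in OSM-ESCs and 0 between the cytokines. Replicate numbers did not pair the samples: deviations of same-numbered libraries correlated at -0.0433, -0.0234 and 0.0265. No called member changed direction in a setting that was run. In LIF-ESCs the calls of Hist1h1c, Hist1h2bc, Hist1h4h, Hist1h4i, Hist1h4b and Hist1h3h held in every setting in which they were tested. In OSM-ESCs the same was so for Hist1h1c, Hist1h2bc, Hist1h4h, Hist1h4i and Hist1h4m. The call of Hist1h2ac in both comparisons and that of Hist1h2an in LIF-ESCs were kept in the 14 settings that tested them. Both genes passed the filter only through groups where they were high, so this is a description and not support. Depth limits the members with few reads, and sequence shared between members limits the assignment of reads to one of them.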
